A study of Homo sapiens with 8 samples.

Results

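The zinc-finger genes of human chromosome 19 were followed by their promoter H3K27ac, a histone acetylation that marks active promoters and enhancers. Members were chosen by name and position: every GENCODE protein-coding gene on chromosome 19 whose symbol is ZNF, a number and at most 1 letter, with no measured value used. The rule gave 246 of 19689 protein-coding genes of chromosomes 1 to 22, X and Y. For each gene and library the highest peak within 1 kb of its protein-coding transcript starts was taken, with its deposited fold over local background and its percentile by fold within the peak list of that library, and 0 where no peak was found. All coordinates are hg38.

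The cells were HCEC-1CT, an immortalised line from human colonic epithelium in which the study asked whether chromatin responds to loss of CREBBP. All of them carry a doxycycline-inducible Cas9 vector. Peak lists were analysed for 3 WT libraries, from parental cells, and 3 CREBBP-KO libraries, from cells given doxycycline and a synthetic guide RNA against CREBBP. The KO cells are called monoclonal for this assay in the study's methods, which elsewhere describe pools of clones per target beside a pool of subclones of the parental line, so the number of clones behind each library is not known here.

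CREBBP, the CREB-binding protein, is a lysine acetyltransferase that places this acetyl mark, as does its paralog EP300. Most of the chromosome 19 genes encode DNA-binding proteins with a row of C2H2 zinc fingers, and many add a KRAB domain, which recruits the co-repressor TRIM28 and, through it, SETDB1, heterochromatin protein and DNA methylation. The genes arose by repeated duplication, stand in tandem clusters, and are known for silencing retroelements. Their own gene bodies often carry repressive chromatin, while their promoters can be active.

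The 6 lists held 86163 to 93567 peaks in WT and 99008 to 111697 in CREBBP-KO, so the lists of the 2 genotypes differed in length. Further low peaks in a longer list raise the percentile of the peaks above them. With lists of the same length the rise in the members' median percentile from WT to CREBBP-KO was 3.33, in place of 5.65. H3K27ac at the promoter of CREBBP itself does not check the knockout, as an edited coding sequence can keep its promoter: its highest peak stood at percentile 96.5, 98.6 and 94.8 in WT and 98.8, 98.8 and 99.3 in CREBBP-KO. Of 6 epithelial markers checked, CDH1 and KRT19 had no promoter peak in any library, EPCAM stood at percentile 0.174 to 8.36 in WT and at 19.7 to 46.1 in CREBBP-KO, and KRT8 had a peak in all 6. KRT18 had a peak in 5 libraries, and KRT7 in 5, at percentile 85.6 and 84.4 in WT replicates 1 and 2 and 89.8 to 95.7 in CREBBP-KO. All 4 leukocyte markers had none, the endothelial marker PECAM1 had one in the CREBBP-KO libraries alone, and the fibroblast markers COL1A1, COL1A2 and PDGFRB stood at percentile 93.3 or above in every library, while the muscle marker DES had no peak. The epithelial markers were thus mixed, with no listed peak at 2 of 6, and 3 of the 4 fibroblast or muscle markers were acetylated in both genotypes. The part of these differences in the results below was not tested.

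The promoters of 5 members show the range of sequence behind the values: the member with the highest mean percentile (ZNF564), those with the largest called shift upward (ZNF587) and downward (ZNF578), and the first 2 along the chromosome with no peak in any library (ZNF556 and ZNF57). Each run is 250 bases before to 50 after the RefSeq start on GRCh38.p14, read 5′ to 3′ on the strand of the gene, with every CpG dinucleotide in capitals.
ZNF564: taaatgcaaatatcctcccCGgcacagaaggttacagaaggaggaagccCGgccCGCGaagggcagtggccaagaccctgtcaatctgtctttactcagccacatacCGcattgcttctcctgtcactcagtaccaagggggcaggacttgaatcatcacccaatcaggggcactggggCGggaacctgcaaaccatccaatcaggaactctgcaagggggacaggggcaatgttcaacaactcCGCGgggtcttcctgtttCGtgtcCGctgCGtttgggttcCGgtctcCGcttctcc
ZNF587: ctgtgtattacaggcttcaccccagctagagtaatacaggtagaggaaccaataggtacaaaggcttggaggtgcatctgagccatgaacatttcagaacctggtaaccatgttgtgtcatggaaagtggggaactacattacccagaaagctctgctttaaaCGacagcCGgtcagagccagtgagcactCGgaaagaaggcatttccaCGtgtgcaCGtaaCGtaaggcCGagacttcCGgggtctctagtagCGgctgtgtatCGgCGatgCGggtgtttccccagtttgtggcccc
ZNF578: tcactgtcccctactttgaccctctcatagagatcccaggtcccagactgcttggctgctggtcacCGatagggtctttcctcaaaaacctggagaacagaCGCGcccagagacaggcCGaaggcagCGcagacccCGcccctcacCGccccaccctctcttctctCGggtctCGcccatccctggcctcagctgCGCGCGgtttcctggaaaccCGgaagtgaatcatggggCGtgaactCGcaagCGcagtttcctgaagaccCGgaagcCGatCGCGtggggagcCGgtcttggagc
ZNF556: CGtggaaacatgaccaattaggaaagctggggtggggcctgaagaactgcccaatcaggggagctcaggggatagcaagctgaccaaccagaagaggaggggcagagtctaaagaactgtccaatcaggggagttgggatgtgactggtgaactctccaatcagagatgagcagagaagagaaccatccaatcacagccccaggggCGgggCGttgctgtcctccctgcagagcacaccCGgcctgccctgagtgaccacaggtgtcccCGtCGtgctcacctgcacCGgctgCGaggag
ZNF57: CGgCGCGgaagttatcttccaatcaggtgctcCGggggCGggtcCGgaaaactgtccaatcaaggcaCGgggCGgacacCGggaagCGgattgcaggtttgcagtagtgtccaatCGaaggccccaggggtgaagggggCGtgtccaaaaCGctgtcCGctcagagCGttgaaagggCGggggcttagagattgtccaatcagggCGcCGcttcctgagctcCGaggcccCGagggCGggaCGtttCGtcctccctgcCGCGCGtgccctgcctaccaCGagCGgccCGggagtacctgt
They lie at chr19:12551433-12551732 on the minus strand, and at chr19:57849609-57849908, chr19:52453303-52453602, chr19:2867085-2867384 and chr19:2900678-2900977 on the plus strand. CpG dinucleotides numbered 13 in ZNF564, 12 in ZNF587, 21 in ZNF578, 8 in ZNF556 and 29 in ZNF57. The promoter richest in CpG among these 5 was thus one without a peak, and the member with the highest peaks was CpG-poor. Of the 50-base words within 1 kb of the start of ZNF57, 17.8% had an exact copy elsewhere in hg38. The median of members was 1.77%. The part of shared reads in the missing peak of ZNF57 was not tested.

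Most members had an acetylated promoter. A peak was present in all 6 libraries at 193 members (78.5%), in 1 to 5 libraries at 10 and in none at 43 (17.5%). Over all protein-coding genes 61.7% had a peak in all 6 and 32.3% had none. Among the 1186 other genes of chromosome 19 the shares were 56.0% and 37.7%, and among the 262 genes of the same symbol pattern on other chromosomes 83.6% and 11.8%. Members with a peak numbered 197, 196 and 197 in the WT libraries and 202, 199 and 198 in CREBBP-KO, on 189 to 195 distinct peaks per library, since some neighbours share one.

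The peaks were of middling height. Over all 246 members the median percentile was 77.8, 77.9 and 79.1 in WT and 84.4, 84.1 and 83.2 in CREBBP-KO, that is 78.3 ± 0.701 and 83.9 ± 0.656 (SD, n = 3 libraries), a difference of 5.65 points. Every CREBBP-KO library lay above every WT library. Over all protein-coding genes the median went from 74.3 to 81.7, a difference of 7.41, over the other genes of chromosome 19 by 10.7, and over the genes of the same pattern elsewhere by 5.2. With genes without a peak counted as 0, the members' rise was thus under that of all genes and of other chromosome 19 genes. It was slightly over that of zinc-finger genes elsewhere. The median deposited fold was 8.38 ± 0.32 in WT and 9.89 ± 0.361 in CREBBP-KO, against 7.45 and 9.01 over all genes. Restricted to genes with a peak in all 6 libraries, the members' median percentile was 82.8 in WT and 87.6 in CREBBP-KO. That of all such genes was 87.6 and 91.4. Other genes of chromosome 19 stood at 86.4 and 90.4, and genes of the same pattern elsewhere at 88.3 and 92.4. By these medians the members' rise was the largest, so its order among the sets depends on whether genes without a peak are counted. The share of acetylated promoters was thus above that of all genes, and the median height of those acetylated was below it. These shares and medians over genes are descriptions with no test. In bulk chromatin a higher peak can come from more cells with the mark or more of it per cell. The deposited fold also depends on sequencing depth and on the control, which are not known here. These cannot be told apart. By immunofluorescence the study reports a significant decrease of H3K27ac in CREBBP-KO cells, minimal in size beside the change under an HDAC inhibitor. By mass spectrometry it reports a moderate reduction of borderline significance. In its own ChIP-seq test on reads nearly all H3K27ac peaks were unaffected, and the differences lay mainly in weak peaks. That test set cut-offs on fold change and FDR over all peaks, unlike the ranks of promoters used below.

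**Figure D1:**
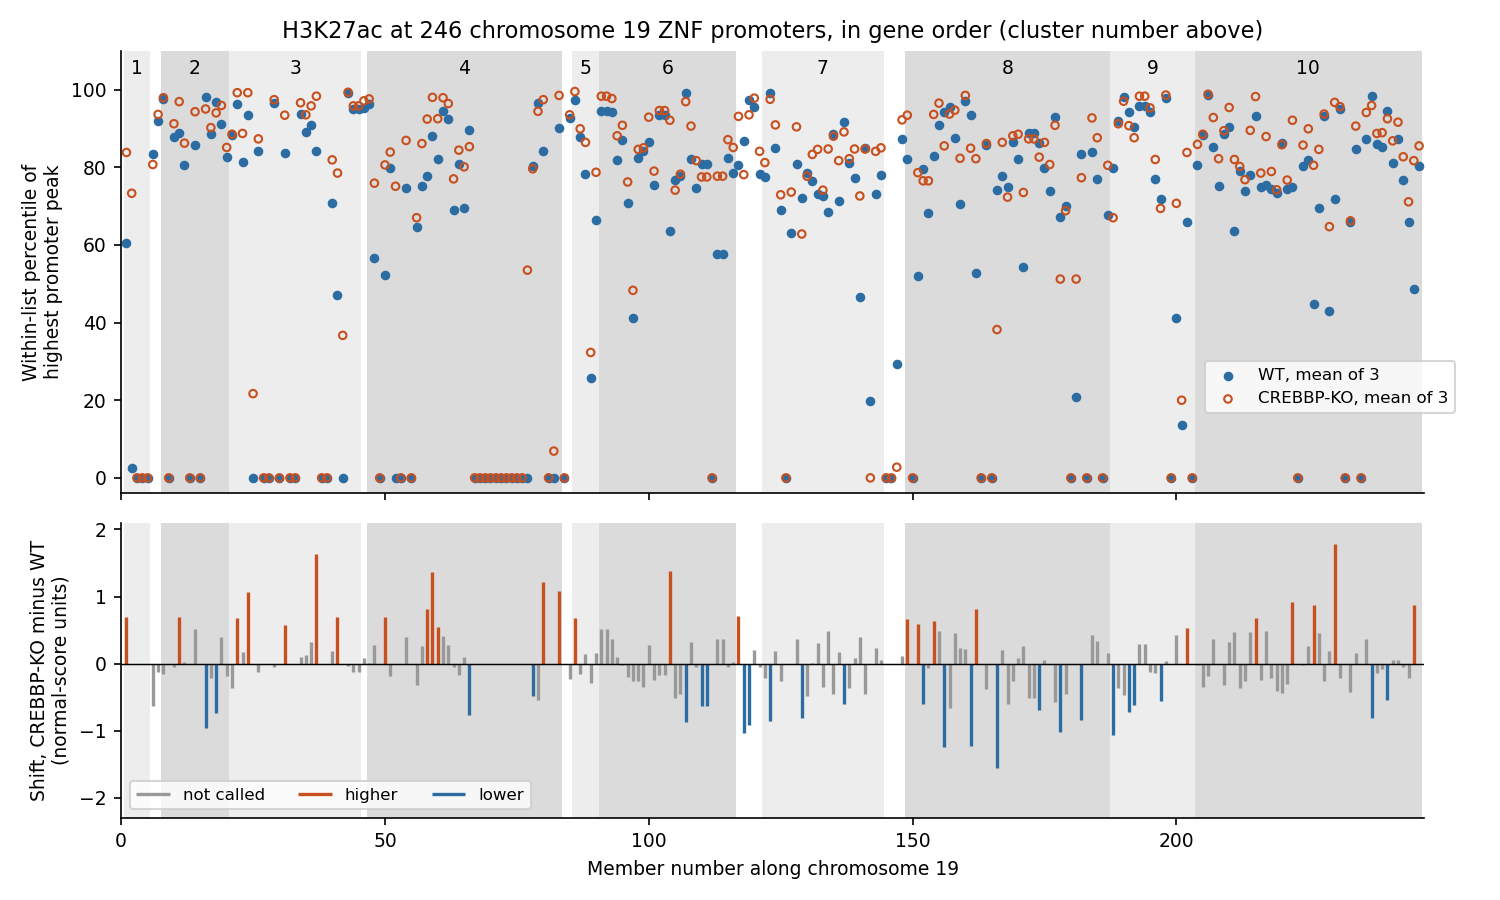
The upper panel plots the mean within-list percentile of the highest promoter peak of each of the 246 members in gene order, for WT (filled) and CREBBP-KO (open), with numbered clusters as alternating grey bands and isolated members on white. The lower panel plots the shift of the 193 tested members, with called shifts in orange (26 higher in CREBBP-KO) and blue (25 lower). Members without a peak lie at 0, and 10 of them form an unbroken row in cluster 4.

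Along the chromosome the members formed 10 clusters, taken as runs of at least 5 members whose gene bodies lie at most 500 kb apart. These held 232 members, and 14 were isolated. The clusters are named here by number with their first and last member. Cluster 10, from ZNF264 to ZNF446 (chr19:57191500-58481230), was the largest with 43 members, of which 40 had a peak in all 6 libraries. Cluster 8, from ZNF175 to ZNF331 (chr19:51571283-53580269), had 39, with 32 in all 6 and 6 in none. In cluster 6, from ZNF565 to ZNF573, 25 of 26 had a peak in all 6, and in cluster 7, from ZNF575 to ZNF180, 21 of 23.

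Clusters 1 to 4 held most of the members without a peak. Cluster 1, from ZNF554 to ZNF77, had 3 of 5 without one. In cluster 3, from ZNF653 to ZNF791 (chr19:11483427-12640098), 7 of 25 had none (28.0%). Cluster 4, from ZNF101 to ZNF254 (chr19:19668796-24129968), had 14 of 37 without a peak (37.8%) and 20 with one in all 6. Clusters 5 (ZNF302 to ZNF792, 5 members), 6 and 7 together had 2 without a peak, cluster 2 (ZNF414 to ZNF846) 3 of 13, cluster 9 (ZNF628 to ZNF835) 2 of 16, cluster 10 3 of 43, and the isolated members 3 of 14.

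The longest stretch without acetylated promoters lay in cluster 4, where 10 consecutive members had no peak in any library: ZNF43, ZNF208, ZNF257, ZNF676, ZNF729, ZNF98, ZNF492, ZNF99, ZNF723 and ZNF728, over 1.2 Mb (chr19:21804946-23003176). The next longest run was ZNF556, ZNF57 and ZNF77 in cluster 1. Directly after the long stretch stood ZNF730, which gained a peak in CREBBP-KO, and further members with peaks in all 6 libraries, among them ZNF91 and ZNF675. The other members without a peak were ZNF558, ZNF177 and ZNF560 in cluster 2, ZNF439, ZNF69, ZNF763, ZNF878, ZNF844, ZNF563 and ZNF442 in cluster 3, ZNF506, ZNF90, ZNF737 and ZNF681 in cluster 4, ZNF793 in cluster 6, ZNF404 in cluster 7, ZNF577, ZNF880, ZNF534, ZNF665, ZNF525 and ZNF813 in cluster 8, ZNF667 and ZNF835 in cluster 9, and ZNF154, ZNF418 and ZNF135 in cluster 10, with the isolated ZNF536, ZNF296 and ZNF541. The lists hold only peaks past the caller's threshold, so absence from a list does not show absence of the mark, and its depth is unknown.

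**Figure D2:**
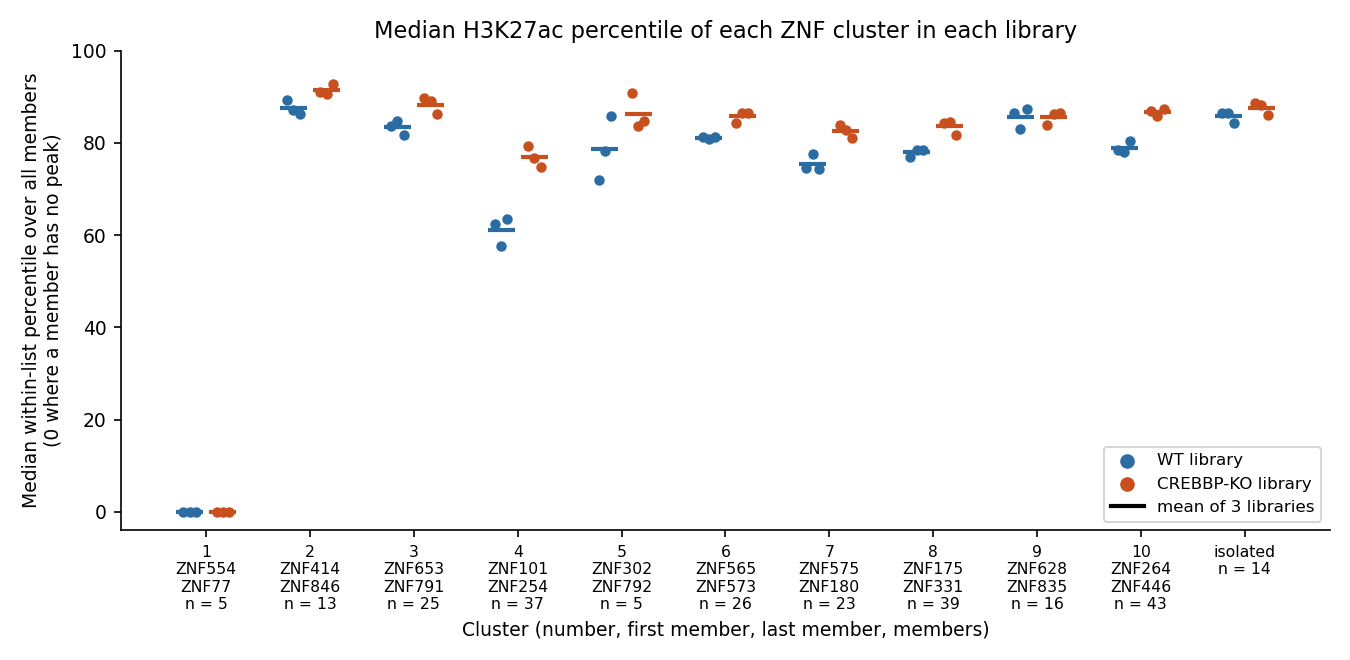
Each point is the median within-list percentile over all members of a cluster in 1 library (0 where a member has no peak), WT in blue and CREBBP-KO in orange, with a bar at the mean of 3 libraries. Cluster 4 lies lowest among clusters 2 to 10 in both genotypes, cluster 1 is at 0 because 3 of its 5 members have no peak, and among clusters 2 to 10 the genotype means coincide only in cluster 9.

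The median percentile over all members of a cluster separated cluster 4 from clusters 2, 3 and 5 to 10. In cluster 4 it was 62.4, 57.6 and 63.4 in WT and 79.3, 76.7 and 74.7 in CREBBP-KO (61.1 ± 3.13 and 76.9 ± 2.3, SD, n = 3). In clusters 2, 3 and 5 to 10 the means lay between 75.5 (cluster 7) and 87.6 (cluster 2) in WT, and between 82.6 (cluster 7) and 91.5 (cluster 2) in CREBBP-KO. Of the 10 clusters, cluster 4 also had the widest difference of genotypes, while cluster 9 stood at 85.6 ± 2.29 and 85.6 ± 1.48. Among members of cluster 4 with a peak in all 6 libraries the medians were 81.3 in WT and 86.8 in CREBBP-KO. These were close to the 82.8 and 87.6 of all tested members, so the low cluster median came with its members lacking peaks. Over such members the difference of genotypes was wider in clusters 1, 3, 5, 7 and 10 than in cluster 4, as in cluster 7 (75.8 and 83.4). It was narrower in clusters 2, 6, 8 and 9.

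To ask which promoters moved against the rest of the genome, genes with a peak in each of the 6 libraries (12147) were ranked by their highest fold within each library, turned into normal scores, in which 1 unit is the SD over genes, and fitted with limma. The shift is the CREBBP-KO mean less the WT mean, and p-values were adjusted by Benjamini-Hochberg over all 12147 genes. As ranks are taken among genes, a gene whose percentile rose less than most is ranked lower. Of 193 members tested, 26 (13.5%) ranked higher in CREBBP-KO and 25 (13%) lower, at an adjusted p under 0.05. Over all genes tested the shares were 14.5% higher and 14.1% lower, so the members were called about as often as genes at large.

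The spread of shifts was close to that of all genes. The median shift of members was -0.02 with quartiles at -0.35 and 0.33, and that of all genes 0.01 with quartiles at -0.34 and 0.34. All 3 CREBBP-KO libraries ranked above all 3 WT libraries at 43 members (22.3%) and below at 40 (20.7%), against 21.7% and 20.5% of all genes. All 26 and 25 called members were among these. With scores of the within-list percentile, which are not re-centred among genes and depend on list length, 71 members were higher and 10 lower, against 4556 and 629 of all genes. When peaks were ranked by -log10 p in place of fold, 15 members (7.77%) were higher and 9 (4.66%) lower, against 5.39% and 5.86% of all genes, and all 15 and 9 of these were called in the same direction by fold.

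**Figure D3:**
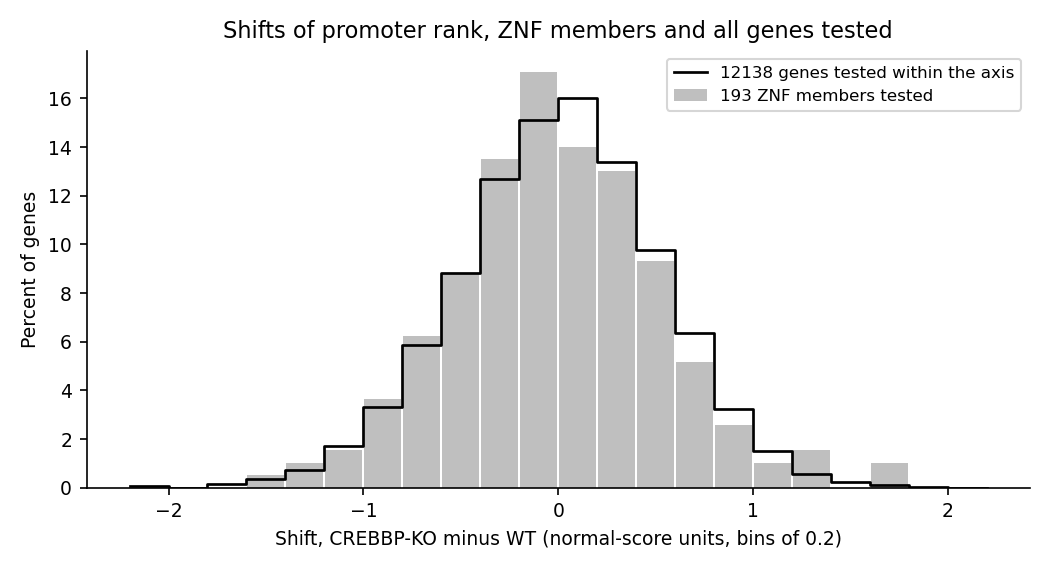
Grey bars give the percent of the 193 tested members in each bin of shift (CREBBP-KO minus WT, normal-score units, bins of 0.2) and the black line the same over genes tested that lie within the axis. The member distribution has the width and centre of the genome-wide one, with 2 members between 1.6 and 1.8.

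The calls of each cluster are given for reading against the 14.5% higher and 14.1% lower of all genes. Some of these calls were lost when a library was left out, as given in the closing section. In cluster 3, 5 of 16 tested members ranked higher and 0 lower (ZNF627, ZNF441, ZNF433, ZNF44 and ZNF443), with a median shift of 0.15. In cluster 4, 6 of 20 ranked higher (ZNF253, ZNF85, ZNF430, ZNF714, ZNF675 and ZNF254) and 2 lower (ZNF100 and ZNF724), with a median shift of 0.27. Cluster 10 had 5 higher (ZNF773, ZNF551, ZNF586, ZNF587 and ZNF324) and 2 lower (ZNF274 and ZNF497) of 40, with a median shift of -0.02.

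Of the other clusters, cluster 8 had 7 lower (ZNF613, ZNF432, ZNF480, ZNF578, ZNF320, ZNF415 and ZNF845) and 4 higher (ZNF175, ZNF649, ZNF615 and ZNF610) of 32. Cluster 9 had 4 lower (ZNF628, ZNF865, ZNF784 and ZNF582) and 1 higher (ZNF71) of 13, with a median shift of -0.14. Cluster 7 had 3 lower (ZNF576, ZNF155 and ZNF226) and 0 higher of 21, and cluster 6 had 3 lower (ZNF383 and the pair ZNF569 and ZNF570, which share 1 promoter peak) and 1 higher (ZNF420) of 25. Clusters 1, 2 and 5 had 1 higher call each (ZNF554, ZNF699 and ZNF302), cluster 2 also 2 lower (ZNF426 and ZNF561), and the isolated members 1 higher (ZNF546) and 2 lower (ZNF780A and ZNF780B). Members of a cluster share sequence and sometimes a peak and were not treated as replicates, and no test of a difference between clusters was made.

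ZNF587 in cluster 10 (chr19:57849859-57865117, ENSG00000198466.12), which with a close paralog represses endogenous retroviruses, had the largest shift of the members in this fit. Its highest fold was 6.67, 7.12 and 7.09 in WT and 20.3, 19.4 and 19.8 in CREBBP-KO. The genotypes did not overlap, and the spread within each was small. Its percentile went from 71.9 ± 1.2 to 96.7 ± 0.721 (SD, n = 3), and the shift was 1.79 (SE 0.17, limma adjusted p = 1.46e-05). Among the 12 members with the largest called shifts, the largest upward shift was instead that of ZNF254 with canonical starts alone (1.89), ZNF420 with peaks of fold of at least 5 (2.38) and ZNF44 without CREBBP-KO replicate 2 (1.95). ZNF587 was the only member called at an adjusted p under 0.0001, against 19 higher and 34 lower genes of 12147. Of the 50-base words in its promoter window 19.1% had an exact copy elsewhere in hg38, so reads there may be shared with a near-identical locus.

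ZNF44 in cluster 3 followed, with folds of 10.4, 10.4 and 9.53 in WT and 27.7, 19.4 and 28.1 in CREBBP-KO. Its shift was 1.64 (SE 0.24, limma adjusted p = 0.000277). ZNF420 in cluster 6, whose product is known as a repressor of p53 targets, had folds of 5.11, 5.03 and 7.31 in WT and 13, 14.3 and 16.5 in CREBBP-KO. All 3 KO values exceeded the highest WT value in both genes, and ZNF420 shifted by 1.38 (SE 0.19, adjusted p = 0.000187).

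The other 3 of the 6 largest upward shifts were in cluster 4. ZNF430 had folds of 11.9, 11.5 and 11.5 in WT and 31.2, 27.8 and 18.2 in CREBBP-KO, with a shift of 1.36 (SE 0.29, limma adjusted p = 0.00282). The third KO library stood well under the other 2 and still above WT. For ZNF675 the folds were 9.74, 9.27 and 11.7 in WT and 20.4, 20.7 and 22.2 in CREBBP-KO (shift 1.21, SE 0.18, adjusted p = 0.000308). For ZNF254, last gene of the cluster, they were 15.0, 11.1 and 12.2 against 20.3, 25.7 and 27.4 (shift 1.08, SE 0.22, adjusted p = 0.00235). With its canonical start alone ZNF254 shifted by 1.89 (limma adjusted p = 5.28e-05). Exact copies elsewhere made up 6.81%, 4.66% and 5.99% of the window words of ZNF430, ZNF675 and ZNF254, and 3.79% and 0% of those of ZNF44 and ZNF420.

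**Figure D4:**
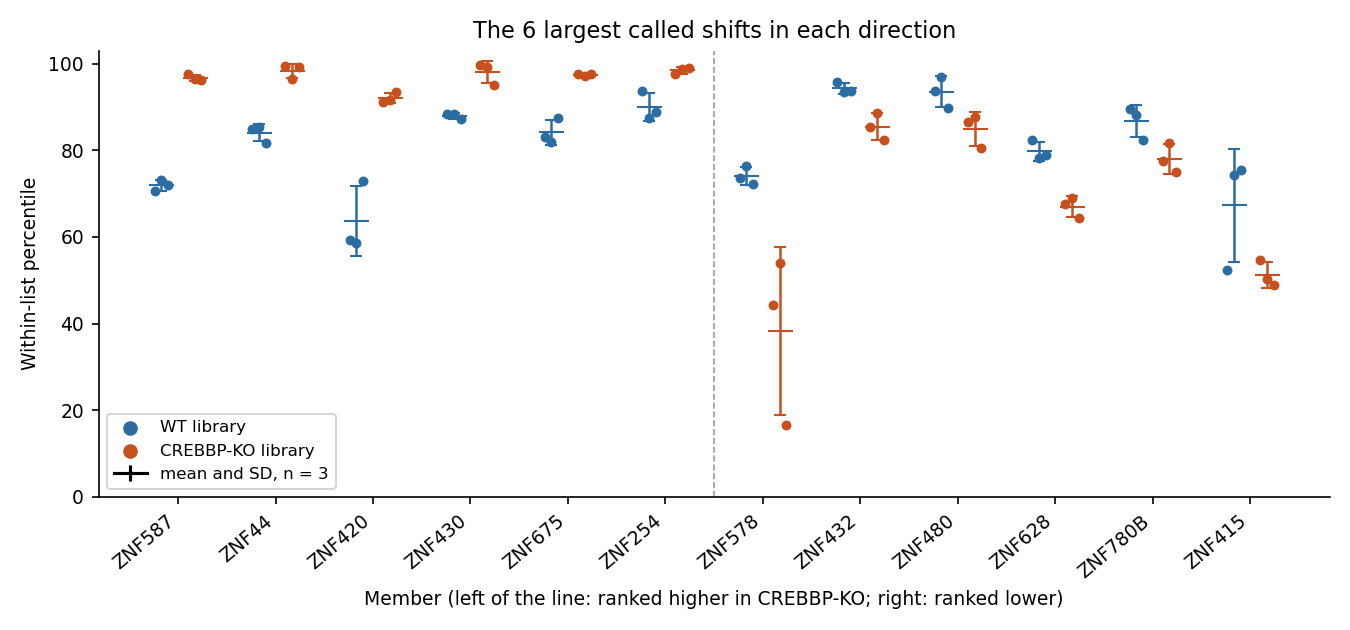
Points are the within-list percentile of the highest promoter peak in each library for the 6 called members with the largest upward shift (left of the dashed line) and the 6 with the largest downward shift (right), with mean and SD of 3 libraries. WT is blue and CREBBP-KO orange. ZNF578 has the widest KO spread, from 16.5 to 53.9.

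Downward, ZNF578 in cluster 8 (chr19:52453553-52516882) had the largest shift, -1.55 (SE 0.23, limma adjusted p = 0.000323). Its folds were 7.27, 7.82 and 7.17 in WT and 3.75, 4.35 and 2.83 in CREBBP-KO, and its percentile went from 74.1 ± 2.09 to 38.2 ± 19.4 (SD, n = 3). Its fold came down as well as its rank, and the highest KO value was under the lowest WT value.

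In the same cluster ZNF432 had folds of 16.9, 14.3 and 15.2 in WT and 9.9, 12.3 and 9.83 in CREBBP-KO (shift -1.24, SE 0.19, adjusted p = 0.000399), and with starts of all transcripts a shift of -0.70 (adjusted p = 0.037). Those of ZNF480 were 15.0, 17.8 and 12.7 against 10.4, 11.8 and 9.05 (shift -1.23, SE 0.24, adjusted p = 0.00159). Those of ZNF415 were 4.44, 7.38 and 7.85 against 4.3, 4.08 and 4.02 (shift -1.02, SE 0.23, adjusted p = 0.00412). The first WT library of ZNF415 was far under the other 2, and at percentile 52.3 it lay below the first KO library at 54.6, although its rank among genes was higher. By -log10 p ZNF415 shifted by -0.52, which missed the threshold (adjusted p = 0.11).

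ZNF628, first gene of cluster 9, had folds of 9.51, 8.25 and 8.71 in WT and 5.49, 5.95 and 5.46 in CREBBP-KO (shift -1.07, SE 0.18, limma adjusted p = 0.000774). The isolated ZNF780B had 12.3, 11.5 and 9.78 against 7.27, 9.14 and 7.43 (shift -1.03, SE 0.2, adjusted p = 0.00185), and by -log10 p its shift of -0.50 missed the threshold (adjusted p = 0.0662). In both genes every KO fold was under every WT fold. Exact copies made up 9.07% and 8.81% of the window words of ZNF480 and ZNF628 and under 1% of those of ZNF578, ZNF432, ZNF780B and ZNF415.

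Some members had a peak in CREBBP-KO alone. ZNF682, ZNF709 and ZNF730 were listed in every CREBBP-KO library and absent from every WT list, 3 of 246 members against 0.869% of all genes (171 of 19689). The reverse, a peak in every WT list and none in CREBBP-KO, was found at 0 members, against 0.0813% of all genes (16 of 19689). ZNF682 in cluster 4 had KO folds of 8.27, 6.37 and 6.92, at percentiles 81.0, 71.4 and 72.9. ZNF730 at the edge of the long stretch without peaks had 3.73, 4.91 and 4.59, and ZNF709 in cluster 3 had 3.19, 3.38 and 4.17, at percentiles 26.3, 33.4 and 50.5. All 3 stood under the median of members with a peak in all 6 libraries, which was 87.6 in CREBBP-KO. As these members were picked for this separation, it was not tested.

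The 7 further members with a peak in some libraries were mixed. ZNF555 in cluster 1 was listed in WT replicate 3 alone among WT (fold 2.71) and in all CREBBP-KO libraries (7.42, 6.17 and 6.65). ZNF491 had a peak in 2 CREBBP-KO libraries (3.39 and 3.32) and ZNF726 in 1 (3.02). The opposite pattern was seen at ZNF285, with a peak in 2 WT libraries (4.26 and 2.78), and ZNF114, with folds of 2.91, 3.4 and 4.0 in WT and 2.68 in CREBBP-KO replicate 1 alone. ZNF677 lacked a peak in WT replicate 3 only, and ZNF470 in CREBBP-KO replicates 2 and 3. Except at ZNF555 all of these peaks were under a fold of 5.

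The highest promoters of the group were those of ZNF564, ZNF460, ZNF576 and ZNF302. ZNF564 in cluster 3 had folds of 24.4, 23.2 and 24.2 in WT and 30.8, 30.0 and 25.4 in CREBBP-KO and stayed at the top of the lists (percentile 99.1 ± 0.0537 and 99.3 ± 0.55, shift -0.04, limma adjusted p = 0.9), and ZNF460 stood at 98.7 ± 0.474 and 98.8 ± 0.569. ZNF576, whose window also holds starts of IRGQ and SRRM5, ranked lower in CREBBP-KO (99.2 ± 0.345 to 97.5 ± 0.368, shift -0.86, adjusted p = 0.00268). ZNF302 ranked higher (97.2 ± 1.44 to 99.5 ± 0.252, shift 0.68, adjusted p = 0.0162). Both calls were lost by -log10 p (adjusted p = 0.0907 for ZNF576 and 0.158 for ZNF302), and that of ZNF302 also without WT replicate 1 (limma adjusted p = 0.0794), CREBBP-KO replicate 1 (0.0547) or CREBBP-KO replicate 2 (0.0698).

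Lowest among members with a peak in all 6 libraries were ZNF30, ZNF461, ZNF814 and ZNF471. ZNF30 stood at percentile 11.1, 28.4 and 37.4 in WT and 21.3, 50.3 and 25.2 in CREBBP-KO. ZNF461 went from 41.2 ± 15.9 to 48.3 ± 16, ZNF814 from 43.1 ± 9.38 to 64.7 ± 11.1, and ZNF471, a gene known to be methylated at its promoter in tumours, from 41.3 ± 23.7 to 70.7 ± 3.72 (SD, n = 3). Replicates of such low promoters scattered widely, and none of the 4 passed the test (limma adjusted p from 0.251 to 0.609).

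Of ZNF274, ZNF91, ZNF93, ZNF808 and ZNF568, members with a known role, ZNF274 alone passed the test. ZNF274, which brings SETDB1 to the ends of zinc-finger genes, had folds of 21.8, 20.5 and 20.5 in WT and 18.0, 17.6 and 20.0 in CREBBP-KO and ranked lower (shift -0.81, SE 0.18, limma adjusted p = 0.00383). ZNF91, a repressor of SVA elements, had a shift of -0.55 that missed the threshold (adjusted p = 0.0785), as did ZNF93, a repressor of LINE elements, with -0.18 (adjusted p = 0.563). ZNF808, whose loss is known to impair pancreas development, shifted by 0.20 (adjusted p = 0.449), and ZNF568, whose mouse counterpart represses a placental Igf2 transcript, by -0.17 (adjusted p = 0.559). ZNF568 shares its promoter peak with ZNF829.

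Of the regulators of single genes or pathways given here, ZNF175 was called. ZNF420 and ZNF432, also listed as of known role and called, are given above. ZNF175, a repressor of viral transcription, had folds of 9.1, 9.96 and 9.41 in WT and 17.4, 14 and 16.3 in CREBBP-KO and ranked higher (shift 0.67, SE 0.19, limma adjusted p = 0.0164). The call was lost by -log10 p (shift 0.24, adjusted p = 0.392), without WT replicate 3 (0.054) and without CREBBP-KO replicate 1 (0.075). ZNF224, a partner of the Wilms tumour protein, had 6.26, 5.55 and 7.54 against 9.34, 10.2 and 11.2, with no overlap and a shift of 0.49 that missed the threshold (adjusted p = 0.0564). ZNF350, which binds BRCA1, shifted by -0.06 (adjusted p = 0.881), the SCAN-domain gene ZNF444 by -0.14 (0.615), ZNF160 by -0.57 (0.0532) and ZNF180 by 0.06 (0.827).

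Of the genes known as imprinted or methylated in tumours, ZNF582 passed the test. The imprinted ZNF331 shifted by 0.16 (limma adjusted p = 0.611), ZNF382 by -0.20 (adjusted p = 0.506) and ZNF132 by -0.05 (adjusted p = 0.877). ZNF582 had folds of 7.82, 6.16 and 7.08 in WT and 5.71, 5.98 and 6.29 in CREBBP-KO and ranked lower (shift -0.56, SE 0.19, adjusted p = 0.0386), with percentiles of 71.8 ± 4.44 and 69.4 ± 0.316. The call of ZNF582 was lost by -log10 p (shift -0.30, adjusted p = 0.255) and on leaving out any library but WT replicate 2 (limma adjusted p of 0.0649 without WT replicate 3, 0.0753, 0.0841 and 0.0849 without CREBBP-KO replicates 3, 2 and 1, and 0.16 without WT replicate 1). ZNF154 had no peak in any library.

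The co-repressor genes that KRAB proteins work with, or that keep zinc-finger genes silent, were acetylated throughout. All 27 of the list had a promoter peak in all 6 libraries. In the same fit 4 ranked higher and 4 lower, near the 14.5% and 14.1% of all genes, with a median shift of -0.14. HDAC2, a deacetylase, had the largest upward shift (1.34, SE 0.28, limma adjusted p = 0.00257), with CBX1, PPHLN1 and EHMT2 also higher. ATRX, CHD4, MPHOSPH8 and EHMT1 ranked lower, with ATRX at -0.76 (adjusted p = 0.00627). By -log10 p only MPHOSPH8 of these 8 passed (adjusted p = 0.0473), HDAC2 having 0.164 and ATRX 0.16. With each library left out in turn, HDAC2 and ATRX kept their calls in every fit. MPHOSPH8 lost its call in 2 of the 6 fits, EHMT1 in 4, PPHLN1 in all 6, and CBX1, CHD4 and EHMT2 in 1 each. TRIM28 itself, the KRAB partner, shifted by -0.03 (adjusted p = 0.949) and SETDB1 by -0.32 (adjusted p = 0.314).

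Sequence went with the presence of a peak. The 300 bases around the canonical start held a median of 6.67 CpG per 100 bases in members, against 7.67 over all genes. Members with a peak in all 6 libraries had a median of 7.0 and those with none 5.33, while the order did not hold everywhere: cluster 4, the CpG-poorest with a median of 3.33, had 4.17 in its members without a peak, and in cluster 9 the values were 10.0 and 11.8. In 4 classes of members by CpG content, 31.8%, 16.7%, 7.69% and 11.3% had no peak, from the poorest to the richest. In the same 4 classes 62.8%, 23%, 16.3% and 15.5% of all genes had none. The classes took in every protein-coding gene, so the poorest and richest were open-ended and CpG content was not matched to members there. In the poorest class 63.6% of members and 28.5% of all genes were acetylated in all 6 libraries. Over the 246 members the Spearman correlation of CpG content and mean percentile was 0.23, a description over genes that share sequence and libraries.

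CpG content did not order the calls in the same way. In the poorest class 9 of 42 tested members ranked higher and 4 lower, and in the richest 6 of 53 and 8. Over all genes the poorest class had 11.7% higher and 19.2% lower, and the richest 15.6% and 12.5%.

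**Figure D5:**
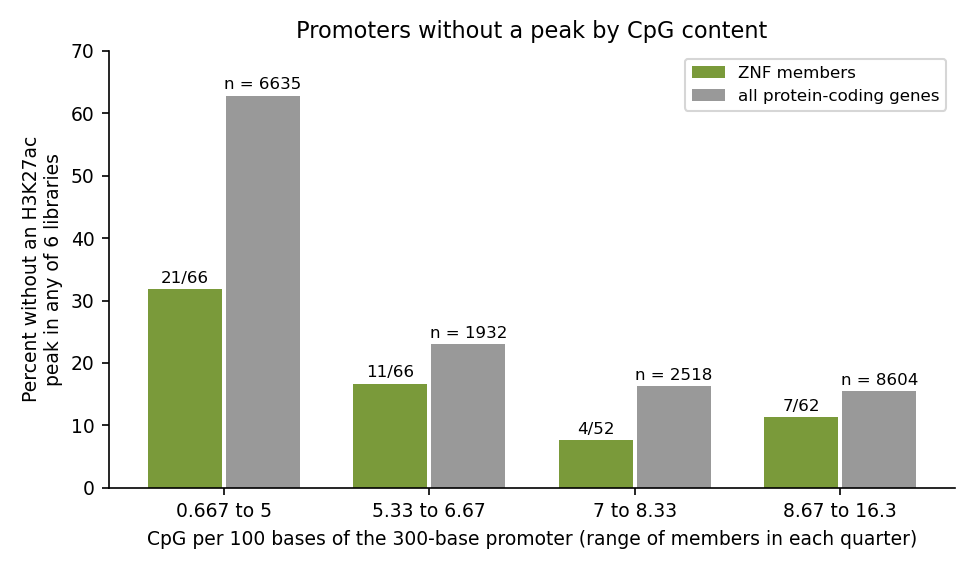
Bars give the percent of genes without an H3K27ac peak in any of the 6 libraries, for members (green, with counts) and all protein-coding genes (grey), in 4 classes of promoter CpG content set by the quartiles of the members. In each class the members' bar is the lower, and the gap is widest in the poorest class (31.8% against 62.8%). For all genes the poorest and richest classes are open-ended, so CpG content is not matched there.

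Short words common in promoters were counted on both strands of the RefSeq promoters of 300 bases, available for 216 of 246 members and 15307 genes in all. The ETS-type word CCGGAAG was in 45.4% of member promoters and 14.4% of all. CCAAT was in 53.7% and 36.6%, GGGCGG in 67.6% and 59.2%, the CREB-type core TGACG in 33.3% and 29.7%, and TATAAA in 1.85% and 9.64%. None of the words contains another. Among members with a peak in all 6 libraries CCGGAAG was in 47.1% (81 of 172), and among those without a peak in 37.1% (13 of 35), while CCAAT was in 51.2% and 62.9%. Of the promoters printed above, ZNF578 held CCGGAAG 2 times, ZNF587 1 time and the others 0 times, and ZNF556 held CCAAT 5 times. A word in a promoter is a match of letters and not a bound site.

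The peaks were short and lay downstream. The highest promoter peak had a median length of 1670 bases in members with any peak and 2472 over all genes with any, and its summit lay downstream of the nearest start in 80.8% and 64.5% of them. Away from starts, the gene bodies were poor in H3K27ac: members had 0.434 ± 0.0128 peaks per 100 kb of gene body in WT and 0.71 ± 0.0629 in CREBBP-KO (SD, n = 3), against 3.86 and 4.6 over all genes and 2.58 and 3.63 over other genes of chromosome 19. A peak in the body was found in 11.4% of members in WT and 14.4% in CREBBP-KO, against 45.5% and 49.2% of all genes. Per Mb, the clusters held 19.6 to 20.0 peaks in WT and 22 to 23.2 in CREBBP-KO, and the rest of chromosome 19 36.1 to 37.0 and 41.2 to 49. Cluster 4 was sparsest, with 6.28 to 6.5 in WT and with 9.19 to 10.1 in CREBBP-KO, while cluster 10 had 43.4 to 45.7.

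Neighbours and copies went with the values as well. A protein-coding start of another gene lay within 1 kb of 42 members, and 40 of these (95.2%) had a peak in all 6 libraries, against 75% of the 204 without such a neighbour. For 18 of the 42 the neighbour was another member, as with ZNF569 and ZNF570, or ZNF565 and ZNF146. Of the 50-base words in a member's window a median of 1.77% had an exact copy elsewhere in hg38, against 1.28% for other genes of chromosome 19, up to 33.5%. The median was 3.18% in members without a peak and 1.43% in those with one in all 6 libraries, and 4.38% in members ranked higher against 0.82% in those ranked lower. The part of reads that map to more than one place in these differences was not tested.

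The encoded proteins held a median of 12 fingers by the C2H2 pattern, from 1 to 36, and all 246 had at least 1. A KRAB A box pattern was found in 180 (73.2%), against 0.658% of other genes, and this is a lower bound since the pattern misses divergent KRAB boxes, as in much of cluster 7. Members with the pattern had a peak in all 6 libraries in 77.2% and those without it in 81.8%. The median number of fingers was 12 in members with a peak in all 6 and 13 in those with none.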

How the data were processed

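The H3K27ac ChIP-seq peak lists of HCEC-1CT cells, 3 from WT and 3 from CREBBP-KO, were grouped by the labels. Per the series' design text, the 3 libraries of a genotype come from separate populations. The input libraries were not analysed here. Reads were aligned to hg38 (BWA, per the labels) in the nf-core ChIP-seq pipeline, and narrow peaks were called per library with MACS2 by the authors. Which input served as control, and whether the lists precede the downsampling of reads the study describes, is not given in the sources used here. The deposited fold is a linear ratio over local background, and the deposited significance is -log10 p and -log10 q, the latter at least 1.3 in every list, a q-value of 0.05. The deposited score was not used. The lists hold no read counts, so depth is unknown and no counting interval was computed, and the precision rests on 3 libraries per genotype.

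Starts of protein-coding transcripts came from GENCODE release 44. A peak counted when any base lay within 1 kb of a start. Ranks of the highest fold among the 12147 genes with a peak in all 6 libraries were turned into normal scores and fitted with limma 3.58.1 (lmFit, eBayes with a trend, R 4.3.3), two-sided, with Benjamini-Hochberg adjustment over all 12147 and a threshold of 0.05. The study's test on reads was not repeated. On simulated scores for 12147 genes, 200 were shifted. The fit recovered 59.5% of shifts of 1 unit, 92.0% of 1.5 and 97.0% of 2, with 2 to 12 false calls. Of shifts of 0.5 it recovered 0%. The main fit called far more genes (1759 higher and 1713 lower), at which the adjustment is less strict. The simulated rates thus do not describe the main fit. Promoter words of 50 bases were matched exactly to hg38. Fingers and KRAB boxes were sought in coding sequences translated from the annotation. Scripts ran in Python 3.11.15 with scipy 1.17.1, matplotlib 3.10.9, numpy 2.4.6 and pandas 2.3.3.

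The members, lists and tests were chosen with earlier results of these data known. Named with values were the 6 largest called shifts in each direction without overlap of the genotypes, the 4 highest and 4 lowest members with a peak in all 6 libraries, members with a peak in one genotype alone, members without a peak by name, and members of known role. Members with a peak in some libraries and calls by cluster were named besides, after their values were seen. Alternatives in the starts, window, overlap, significance, fold, list length, ranking, scores and model were tried, and fits were repeated without each library.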

Additional observations from a re-analysis of the deposited data

How the results depend on the processing

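The counts of members ranked higher (26) and lower (25) stayed within 1.5 times under other starts, windows, overlap rules, peak filters, list lengths, log2 folds, a fit without a trend and the wider set of genes, and with each library left out (19 to 23 higher, 18 to 25 lower). They became 15 and 9 when peaks were ranked by -log10 p (7.77% and 4.66%, against 5.39% and 5.86% of all genes), 71 and 10 with scores of the within-list percentile, and 1 and 0 at an adjusted p under 0.0001, where 19 and 34 of all genes were called. Single calls were less steady than these totals. Those of ZNF724 and ZNF71 were lost on leaving out any of the 6 libraries, and those of ZNF613 and ZNF582 with 5 of them. Calls of ZNF714, ZNF569, ZNF570, ZNF649, ZNF784 and ZNF497 were lost with 4 of the 6, and other calls with fewer or none. The rise in the members' median percentile (5.65) was 6.67 with peaks of -log10 q of at least 5, 9.28 with peaks of fold of at least 5, 3.33 with lists of the same length and 3.52 by -log10 p, and 5.39 to 6.05 with a library left out. Members with a peak in one genotype alone (3) became 8 with peaks of fold of at least 5, and 3 to 5 with a library left out, 5 without CREBBP-KO replicate 1. The cause of these changes was not tested, except that lists of the same length take from the longer lists their lowest peaks. Members with a peak in all 6 libraries (193) stayed within 1.5 times throughout.

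Of 247 refits of the 12 named shifts, 244 kept direction and side of the threshold and 0 reversed. A further 5 gave no value because the gene then lacked a peak in some library: ZNF578 with -log10 q of at least 5 and with fold of at least 3 or 5, ZNF415 with fold of at least 5, and ZNF430 with the summit in the window. On the scale of ranks among genes, sizes also moved by over 1.5 times for ZNF254 (1.89 with the canonical start, 0.63 by -log10 p), ZNF432 (-0.70 with starts of all transcripts, -0.60 by -log10 p), ZNF420 (2.38 with fold of at least 5, 0.89 by -log10 p), ZNF628 (-1.84 with fold of at least 5), ZNF44 (0.91 by -log10 p) and ZNF480 (-0.68 by -log10 p). The 3 refits that missed the threshold were ZNF780B by -log10 p (-0.50, adjusted p = 0.0662), and ZNF415 by -log10 p (-0.52, adjusted p = 0.11) and with scores of the within-list percentile (-0.43, adjusted p = 0.0615). Deviations of same-numbered WT and CREBBP-KO libraries correlated at 0.01 to 0.03, and those of different numbers at -0.03 to 0.01. With 3 libraries per genotype this cannot show whether the numbers pair the samples. A fit with a replicate block gave 25 higher and 26 lower. A gap of 250 kb gave 12 clusters and one of 1 Mb 9. Low peaks are limited by the caller's threshold. Shifts of 0.5 were not recovered in the simulation with 200 genes shifted. In the data, where more genes were called, ZNF724 passed at a shift of -0.49 (limma adjusted p = 0.0448). Its call was lost on leaving out any of the 6 libraries (limma adjusted p of 0.0604 to 0.117). By -log10 p it shifted by -0.10 (limma adjusted p = 0.721).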
